A study of Mus musculus with 6 samples.

Results

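The nuclear genes for 58 subunits of respiratory complexes I to IV were examined for DNA recovered with the long noncoding RNA Tug1 in mouse podocytes, the epithelial cells that form the slit filter of the kidney glomerulus. The genes were taken by name from 21896 protein-coding genes of the mm10 gene table. The rule uses no peak, but the set was proposed with earlier results of these data known. They comprised 34 genes of complex I, 4 of complex II, 9 of complex III and 11 of complex IV. Ndufa4, named as a complex I gene, was counted under complex IV, since its protein is known as a subunit of that complex. A gene was counted as having a peak when a peak overlapped it (called inside here, also where the peak runs past an end) or lay within 5 kb of either end. By this rule 36 of the 58 genes (62.1%) had a peak of at least 1 library, against 75% of all protein-coding genes. A region recovered with both probe sets was found at 6 genes (10.3%, against 16%) and a region of all 4 libraries at none (against 1.6%).

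The assay was chromatin isolation by RNA purification (ChIRP-seq), in which biotinylated oligonucleotides that pair with an RNA are used to recover the DNA fixed to it. Of 48 probes against Tug1, alternate ones made up the even and the odd pool, each pool served for 2 pulldowns from glutaraldehyde-fixed nuclei, and the 4 libraries are named here even replicate 1, even replicate 2, odd replicate 1 and odd replicate 2. A library of input chromatin stood against each replicate number. All came from 1 kind of cell with no other treatment: podocytes immortalised with a temperature-sensitive SV40 T antigen, at passages 10 to 12, grown at 33 degrees and then kept at 37 degrees for 10 days to differentiate. Replicates are not stated to be separate cultures, so their spread may be technical.

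The respiratory chain passes electrons from NADH (complex I) and succinate (complex II) through ubiquinone to complex III, from there through cytochrome c to complex IV, and so to oxygen. Complexes I, III and IV pump protons across the inner mitochondrial membrane, and ATP synthase uses the gradient. Nearly all subunits are encoded in the nucleus, a core set on the mitochondrial genome, and the coactivator PGC-1alpha, followed up in work on Tug1 in podocytes, is known to raise transcription of the nuclear ones. Peak lists show where DNA was recovered, not whether a gene was expressed, so neither subunit levels nor podocyte markers could be read from them.

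The lists held 26529 to 40725 peaks each, with median widths of 247 to 407 bp, and every library had peaks in Tug1 itself (3 to 5). Read depth is unknown from these files. Each peak carries a score from the authors' peak caller, given here with its percentile within its own list. In replicate 1 of the even and odd sets, 78.6% and 99.9% of all peaks share the score 3100, which by mid-rank is percentile 58.8 and 50.04, so that in those lists the score hardly ranks peaks. In the replicate 2 lists the score varied, with medians of 265 in the even and 221 in the odd list.

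The start of a subunit gene was covered by a peak in 2 cases, Ndufa11 and Ndufs8, among the 48 genes with a promoter sequence (250 bases before to 50 after the start). A further promoter, of the neighbour gene Tcirg1, lay in the region near Ndufs8 that both probe sets recovered. These 3 sequences are printed because peaks overlapped them, and come from RefSeq (GRCm38.p6, which is mm10). Each runs 5′ to 3′ in the direction of its gene. Capitals mark exact matches, on either strand, to GCGCANGCG, a core of the sites of NRF1, or CCGGAAG, a core of the sites of ETS factors such as GABP, both known regulators of respiratory genes. The searched letters also included AAGATGGCG (YY1) and TNAAGGTCA (oestrogen-related receptors), with no match in these 3.
Ndufa11 promoter, chr17:56717512-56717811, plus strand: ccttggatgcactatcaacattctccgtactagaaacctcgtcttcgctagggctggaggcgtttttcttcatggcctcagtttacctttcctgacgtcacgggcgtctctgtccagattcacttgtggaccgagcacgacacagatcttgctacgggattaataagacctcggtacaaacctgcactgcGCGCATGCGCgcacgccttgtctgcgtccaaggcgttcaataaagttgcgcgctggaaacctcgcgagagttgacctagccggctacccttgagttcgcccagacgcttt
Ndufs8 promoter, chr19:3912725-3913024, minus strand: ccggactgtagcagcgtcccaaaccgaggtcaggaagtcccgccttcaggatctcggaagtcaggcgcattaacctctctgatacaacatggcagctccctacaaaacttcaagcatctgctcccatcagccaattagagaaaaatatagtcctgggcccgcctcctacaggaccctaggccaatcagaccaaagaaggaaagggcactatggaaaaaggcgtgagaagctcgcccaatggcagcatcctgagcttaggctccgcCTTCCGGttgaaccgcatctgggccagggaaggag
Tcirg1 promoter, chr19:3905181-3905480, minus strand: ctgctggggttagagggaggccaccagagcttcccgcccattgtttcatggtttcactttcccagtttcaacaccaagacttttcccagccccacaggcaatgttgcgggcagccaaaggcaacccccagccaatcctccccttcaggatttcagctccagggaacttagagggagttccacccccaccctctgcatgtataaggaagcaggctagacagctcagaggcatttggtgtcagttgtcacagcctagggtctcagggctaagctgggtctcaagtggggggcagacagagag

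At Ndufa11, which codes for an accessory subunit in the membrane arm of complex I, the peak of even replicate 1 covered bases 123 to 300 of the printed window, including the match at bases 191 to 200. That peak (chr17:56717634-56718225) scored 1626.85, at percentile 0.850 of its list, and also covered the whole promoter window of Vmac, the gene on the opposite strand. At Ndufs8, a core subunit of complex I that carries iron-sulphur clusters, a peak of even replicate 2 (chr19:3912761-3913250) covered bases 1 to 264 and ended just before the match at bases 266 to 272. It scored 131.7, at percentile 7.02. Each promoter was therefore covered in 1 library and by a peak of low score there. Tcirg1, a subunit of the vacuolar proton pump, had its last 116 bases covered in even replicate 2 and its last 115 in odd replicate 2.

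Across the libraries, 24 of the 58 genes had a peak in even replicate 1, 9 in even replicate 2, 8 in odd replicate 1 and 17 in odd replicate 2. The shares were 41.4%, 15.5%, 13.8% and 29.3%, against 48.9%, 35.5%, 40.1% and 42.7% of all protein-coding genes in the same 4 lists. The replicates of a probe set differed more than the sets did: the mean number was 16.5 ± 10.6 (SD, n = 2) for the even and 12.5 ± 6.36 (SD, n = 2) for the odd pulldowns. The difference of 4 genes had a two-sided exact permutation p of 0.667, where 2 libraries against 2 cannot give less than 0.333. Its sign turned without even replicate 1 (-3.5) and without odd replicate 1 (-0.5).

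**Figure D1:**
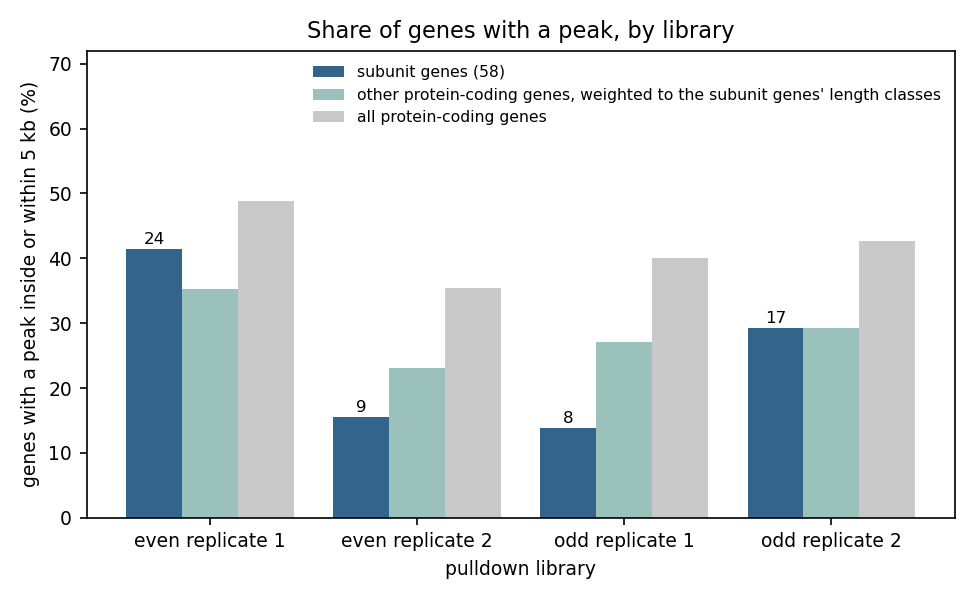
Share of genes (vertical axis, percent) with a peak inside or within 5 kb in each pulldown library (horizontal axis). Dark bars are the 58 subunit genes, with the number of genes above each (24, 9, 8 and 17), green bars the share of other protein-coding genes weighted to the subunit genes' length classes, and grey bars all protein-coding genes. The dark bar is below the grey bar in every library.

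Subunit genes are short, and short genes hold fewer peaks. Their median length was 7179 bp (1902 to 100300), against 17149 bp for all protein-coding genes. When the shares of other protein-coding genes in 5 length classes were applied to the 58 lengths, they gave 37.4 genes with a peak of at least 1 library, beside the 36 observed, whereas the share of all protein-coding genes, 75%, gave 43.5. For a region of both probe sets they gave 5.50 genes beside the 6 observed, with a share over all protein-coding genes of 16%. By library they gave 20.5 genes for even replicate 1 (24 observed), 13.4 for even replicate 2 (9), 15.7 for odd replicate 1 (8) and 17.0 for odd replicate 2 (17). At their length, the genes as a group thus stood near the background when all libraries were joined, above it in 1 list and below it in 2. These are descriptions, and no test was made.

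By class, 11 of 18 genes under 5 kb had a peak (61.1% against 46.5% of other genes of that length). Of the 22 genes of 5 to 10 kb, 11 had one (50% against 66.0%). All 9 genes of 10 to 20 kb had one (73.1% of other genes): Ndufa7, Ndufa8, Ndufb5, Ndufs3, Ndufv3, Sdhb, Uqcrc1, Cox5a and Cox7a2. Of the 8 genes of 20 to 50 kb, 4 had one (87.2%), and the longest gene, Ndufs4, had peaks of 2 libraries. Regions of both probe sets lay inside or within 5 kb of 2 of the 18 genes under 5 kb (11.1% against 6.60% of other genes), 1 of the 22 of 5 to 10 kb (4.55% against 8.16%) and 3 of the 9 of 10 to 20 kb (33.3% against 10.6%). None lay at the 8 genes of 20 to 50 kb (15.02% of other genes) or at Ndufs4 (35.6%).

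**Figure D2:**
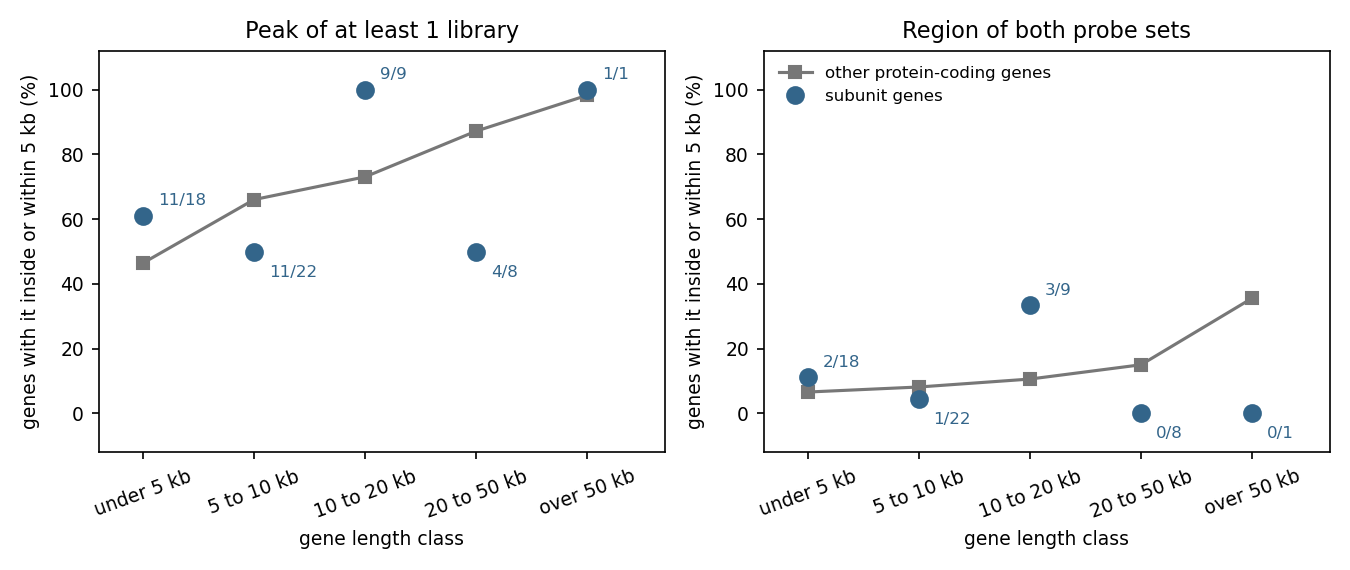
Share of genes (percent) by gene length class, with a peak of at least 1 library (left) or a region of both probe sets (right) inside or within 5 kb. Squares are other protein-coding genes, circles the subunit genes with their numbers. The share of other genes climbs with length, from 46.5% under 5 kb to 98.2% over 50 kb, and the circles scatter around it.

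Overlapping peaks of the 4 libraries were merged into regions. Regions with at least 1 even and 1 odd peak were found at 6 of the 58 genes, against 16% of all protein-coding genes, and all 6 code for complex I subunits: Ndufb5, Ndufa6, Ndufa8, Ndufs6, Ndufs8 and Ndufs3. Complex I makes up 34 of the 58 genes, so it had such a region at 6 of 34. No gene of complexes II, III or IV, with 4, 9 and 11 genes, had one. Whether the complexes differ in this was not tested. Even replicate 1 took part in 5 of the 6 regions, so that 1 gene, Ndufs8, was left without that library. Leaving out odd replicate 2 left 3 genes, Ndufb5, Ndufa6 and Ndufs6. A region of all 4 libraries was found at none of the 58 genes, against 1.6% of all protein-coding genes. The nearest one lay 27100 bp from a subunit gene at the closest (Sdhc) and 1132 kb away at the median, against 1278 kb for other protein-coding genes.

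Ndufb5 codes for an accessory subunit in the membrane arm of complex I. It had the only region at a subunit gene with 3 libraries, chr3:32745549-32746044, inside the 14503 bp gene (chr3:32737057-32751559) and with its centre 8739.5 bp from the start. The score was 3100 in even replicate 1 (percentile 58.8), 3100 in odd replicate 1 (percentile 50.04) and 1634 in odd replicate 2 (percentile 99.7). The last is the highest percentile of any subunit gene peak in any list. The peaks of even replicate 1 and odd replicate 2 shared 398 bp, 97.3% of the former and 89.2% of the latter. Even replicate 2 had no peak nearer than 72750 bp. A second peak of odd replicate 1 lay in the same gene (chr3:32745055-32745319, score 3100). Whether the region is exonic or intronic could not be read from the gene table, which holds no exons.

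Ndufa6, an accessory subunit of complex I on the matrix side, was the only gene of the 58 with peaks of all 4 libraries. The share of all protein-coding genes was 13.4%, not adjusted for length. The peaks at Ndufa6 did not fall in 1 place. Even replicate 1 (chr15:82351094-82351345, score 3100) and odd replicate 1 (chr15:82351097-82351328, score 3100) overlapped inside the 4153 bp gene, where the odd peak lay wholly within the even one. A second odd replicate 1 peak (score 3100) lay 386 bp before the gene start. Even replicate 2 had its peak 2787 bp before the start (score 151.71, percentile 11.1). Odd replicate 2 had one 3063 bp past the end, in Smdt1 (score 118.73, percentile 9.55), which codes for a regulator of the mitochondrial calcium uniporter. The replicate 2 peaks were thus both outside the gene and low in their lists.

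Ndufa8 codes for an accessory subunit on the intermembrane side of complex I. Its region lay inside the gene, with its centre 9556 bp from the start. The peak of even replicate 1 (chr2:36039537-36040027) scored 3100 and that of odd replicate 2 (chr2:36039583-36039833) scored 314.18, at percentile 72.6. The odd peak lay wholly within the even one. The nearest peaks of the other two libraries were 60302 bp (even replicate 2) and 54407 bp (odd replicate 1) away.

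Ndufs6 codes for a zinc-binding accessory subunit needed late in assembly of complex I. Its region, shared by even replicate 1 (chr13:73328957-73329372, score 3100) and odd replicate 1 (chr13:73329130-73329369, score 3100), lay before the gene start, at 475 and 648 bp from it. The same bases lie in Mrpl36, a mitochondrial ribosomal protein gene that runs in the opposite direction, so the region cannot be assigned to 1 of the 2 genes. Neither replicate 2 list had a peak nearer than 29916 bp to Ndufs6.

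Ndufs8 had the only region formed by the replicate 2 lists, where the score ranks peaks. Even replicate 2 (chr19:3904717-3905296) scored 165.15, at percentile 16.0, and odd replicate 2 (chr19:3904958-3905295) scored 326.66, at percentile 74.7. The region lay 3567 bp past the end of Ndufs8, over the start of Tcirg1 printed above.

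Ndufs3 codes for a core subunit of the ubiquinone-binding module. Its region lay at the edge of the window, before the gene start and in Kbtbd4. The peak of odd replicate 2 (chr2:90909472-90910121, score 349.84, percentile 78.5) began 4751 bp from the gene. The overlapping peak of even replicate 1 (chr2:90909840-90910092, score 3100) began 5119 bp from it, outside the window. Another peak of even replicate 1 (score 3100) lay 3288 bp past the end of the gene. Of the 6 regions, then, those at Ndufb5, Ndufa6 and Ndufa8 lay inside the subunit gene, and those at Ndufs6, Ndufs8 and Ndufs3 lay outside it and in a neighbouring gene.

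**Figure D3:**
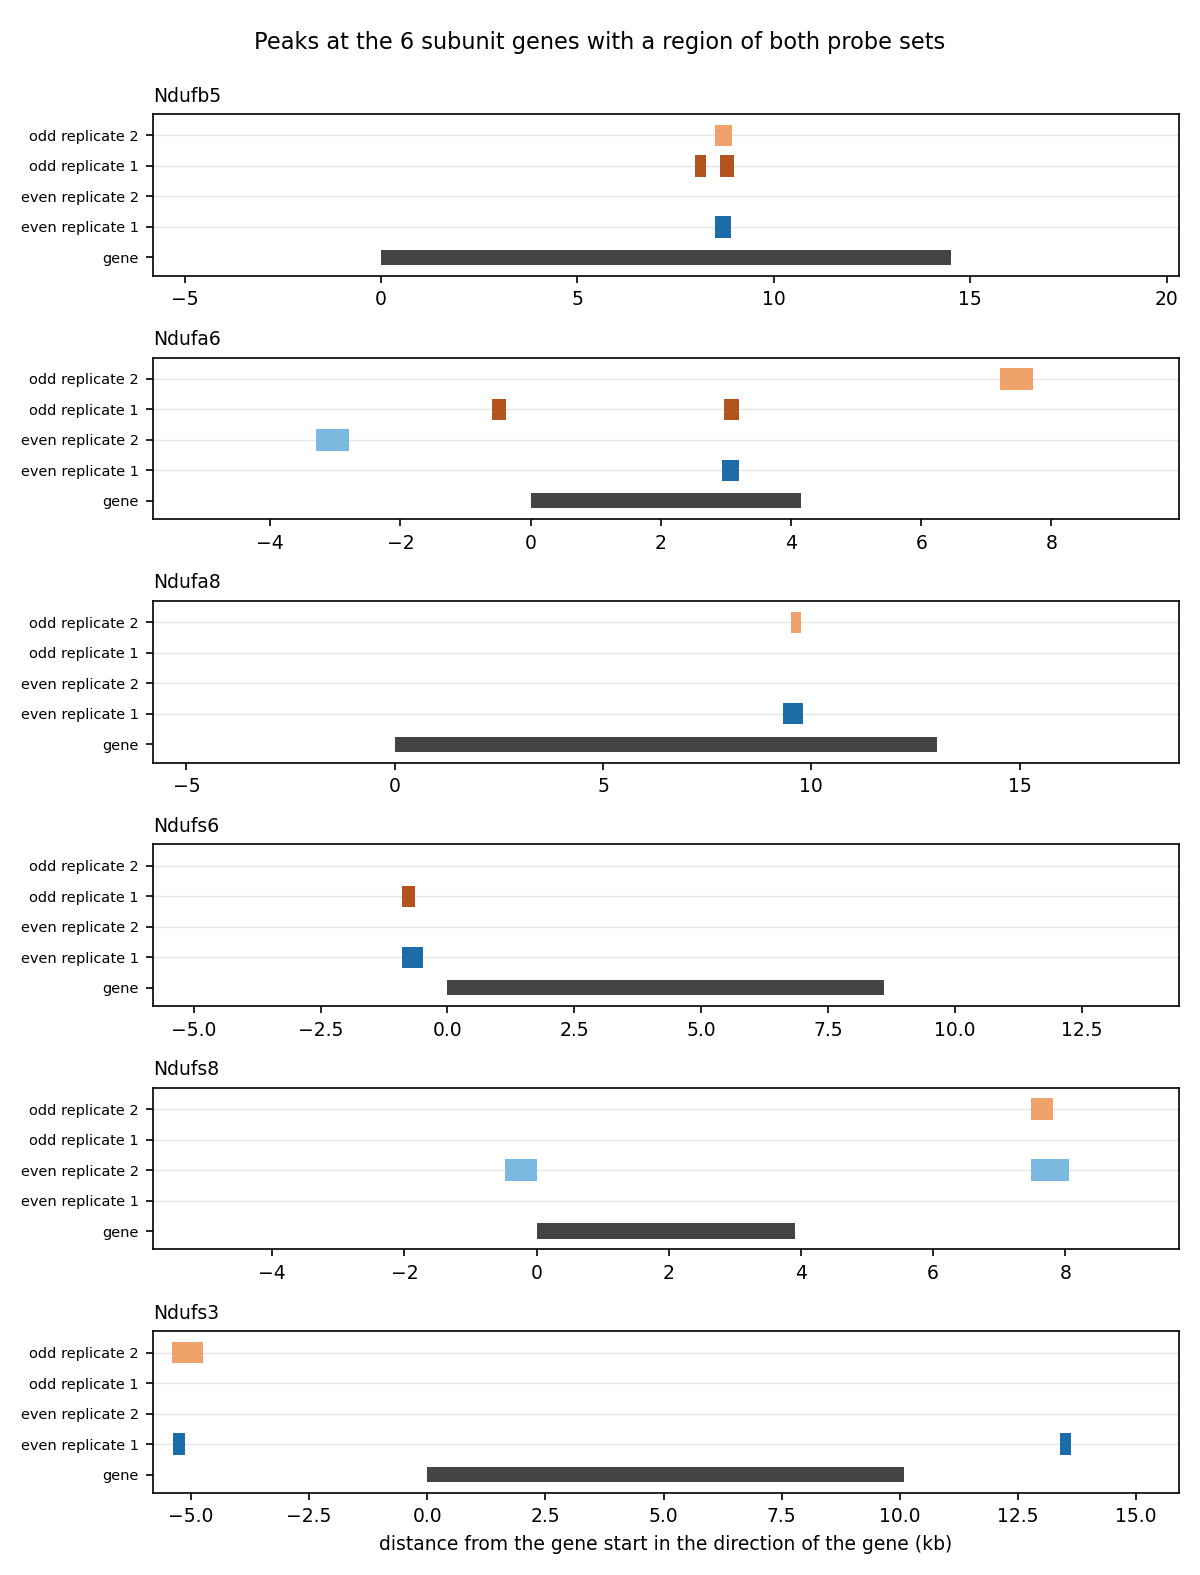
Peaks of the 4 pulldown libraries (coloured bars, one line per library) at the 6 subunit genes with a region of both probe sets, drawn to scale against distance from the gene start in the direction of the gene (kb). The dark bar is the gene. At Ndufb5 the peaks of 3 libraries coincide inside the gene, while at Ndufa6 the replicate 2 peaks lie on either side of it.

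A further 12 genes had peaks of at least 2 libraries that formed no region of both probe sets. This brought the number with at least 2 libraries to 18 of 58 (31.0%, against 49.6% of all protein-coding genes). By length class, 19.1 of the 58 genes would have had them. Of these 12 genes, 6 code for complex I subunits.

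Ndufs4, an accessory subunit mutations of which are a known cause of Leigh syndrome, is the longest of the genes at 100300 bp and held 5 peaks inside it. Even replicate 1 gave 3, at scores of 3109.49 (chr13:114339068-114339464, percentile 98.2), 3100 and 2146.91. Odd replicate 2 gave 2, at 197.26 (percentile 41.8) and 72.87 (percentile 1.52). Its peaks of the 2 libraries did not overlap.

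Ndufa9, which lies at the junction of the matrix and membrane arms, had 1 peak each of even replicate 1 (score 2570.28, percentile 11.2) and even replicate 2 (score 171.79, percentile 17.98), both inside the gene. Ndufa7 had a peak of odd replicate 2 inside it (score 222.51, percentile 50.4) and 1 of even replicate 1 in Kank3, 3603 bp before the start (score 2232.66, percentile 5.51). Ndufa11, besides its promoter peak, had a peak of odd replicate 2 inside it (chr17:56719876-56720360, score 184.99, percentile 37.3). None of these peaks stood high in its list.

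Ndufb4 had a peak of odd replicate 2 652 bp before its start (score 150.09, percentile 21.1) and 1 of even replicate 1 4762 bp before it (score 3100). Ndufc1 had a peak of even replicate 1 inside it (score 2236.74, percentile 5.57) and 1 of odd replicate 1 2000 bp before its start (score 3100). Both code for accessory subunits of the membrane arm.

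In complex II, Sdhb, the iron-sulphur subunit of succinate dehydrogenase, had the highest-ranked peak of even replicate 1 at any of these genes (chr4:140965869-140966193, score 3198.16, percentile 99.5). It lay inside the 17928 bp gene, with its centre 4760 bp from the start. A peak of odd replicate 1 (chr4:140962408-140962786, score 3100) lay nearer the start, at 1326 bp, and did not overlap it. The replicate 2 lists had no peak at any of the 4 complex II genes. Of all protein-coding genes, 35.5% had one in even replicate 2 and 42.7% in odd replicate 2. Sdhc, a membrane anchor, had 1 peak of even replicate 1 inside it (score 2640.72, percentile 12.4), and Sdha and Sdhd had none.

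In complex III, 6 of 9 genes had a peak (5.25 by length class, and 75% of all protein-coding genes). Uqcrc2, a core protein of the complex, had 2 peaks of odd replicate 2 at its high-coordinate end, where Pdzd9 lies as well: 1 across the gene end (chr7:120659358-120659704, score 275.15, percentile 64.6) and 1 764 bp beyond it (chr7:120660287-120660572, score 613.87, percentile 95.5). A peak of even replicate 2 lay at the other end of the gene, 745 bp outside it (chr7:120634221-120634444, score 390.26), and at percentile 75.7 it was the highest of that library at a subunit gene.

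Uqcrh, the hinge protein that assists cytochrome c1, had a peak of even replicate 1 inside it (score 3100) and 1 of odd replicate 2 in Lrrc41, 4705 bp before the start (score 117.97, percentile 9.18). Cyc1, cytochrome c1 itself, had peaks of both even libraries on either side of the gene, 310 bp (even replicate 2, score 200.96, percentile 27.8) and 1367 bp away (even replicate 1, score 1865.61, percentile 1.75). In neither gene did the libraries coincide.

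In complex IV, 5 of 11 genes had a peak (6.62 by length class, and 75% of all protein-coding genes). Cox4i1, the widely expressed form of the regulatory subunit 4, had peaks of 3 libraries, all on its low-coordinate side and in Emc8. Even replicate 2 had its peak 770 bp from the gene (chr8:120667030-120667455, score 147.09, percentile 10.0), odd replicate 2 at 2812 bp (score 113.15, percentile 7.99) and even replicate 1 at 4429 bp (score 3100). They did not overlap, and the 2 lists in which scores vary ranked them near the bottom. Only Ndufa6, Ndufb5 and Cox4i1 reached 3 libraries, 5.17% of the 58 genes against 29.1% of protein-coding genes, not adjusted for length. Cox5a, a subunit on the matrix side, had peaks of odd replicate 1 and even replicate 1 at 4606 and 3612 bp before its start, both at 3100.

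**Figure D4:**
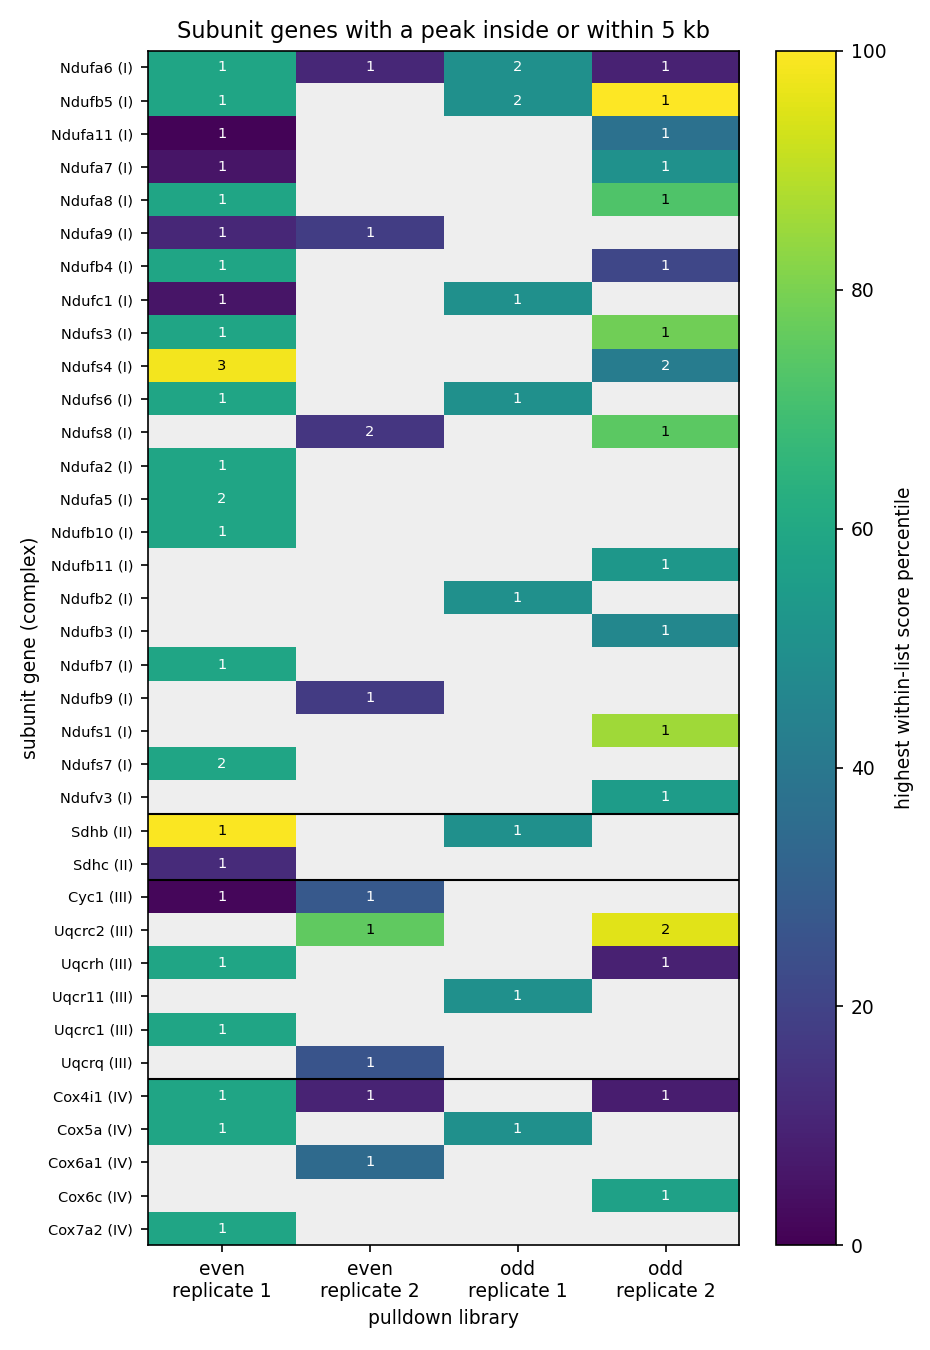
The 36 subunit genes with a peak inside or within 5 kb (rows, complex in brackets) by pulldown library (columns). The number is the count of peaks, the colour the highest within-list score percentile, and grey means no peak. In the replicate 1 columns most cells sit at the percentile of the shared score 3100 (58.8 and 50.04).

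Another 18 genes had peaks of a single library. In complex I these were Ndufa2, Ndufa5, Ndufb7, Ndufb10 and Ndufs7 in even replicate 1, Ndufb9 in even replicate 2, Ndufb2 in odd replicate 1, and Ndufb3, Ndufb11, Ndufs1 and Ndufv3 in odd replicate 2. The highest-ranked of them was in Ndufs1, the largest iron-sulphur core subunit (chr1:63148536-63148753, score 413.99, percentile 85.9 of odd replicate 2), and lay in Ino80dos as well. In complex II it was Sdhc, described above. In complex III these were Uqcrc1 (even replicate 1, score 3100, percentile 58.8), Uqcr11 (odd replicate 1, score 3100) and Uqcrq (even replicate 2, percentile 26.0). In complex IV they were Cox7a2 (even replicate 1, score 3100, percentile 58.8), Cox6c (odd replicate 2, percentile 57.4) and Cox6a1 (even replicate 2, percentile 34.7).

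No peak of any library lay inside or within 5 kb of 22 genes. These were Ndufa1, Ndufa3, Ndufa10, Ndufa12, Ndufa13, Ndufb6, Ndufb8, Ndufc2, Ndufs5, Ndufv1 and Ndufv2 of complex I, Sdha and Sdhd of complex II, Uqcrfs1, Uqcrb and Uqcr10 of complex III, and Ndufa4, Cox5b, Cox6b1, Cox7b, Cox7c and Cox8a of complex IV. They include the catalytic flavoprotein subunits Ndufv1 and Sdha and the Rieske protein Uqcrfs1. The gene just outside the window was Cox7b, with a peak of even replicate 1 at 5026 bp, followed by Sdhd at 5102 bp (even replicate 2), and the farthest peak inside the window was that of Cox7a2 at 4877 bp. Over all 58 genes the median distance to the nearest peak was 7.67 kb in even replicate 1, 23.5 kb in even replicate 2, 21.5 kb in odd replicate 1 and 11.9 kb in odd replicate 2. For other protein-coding genes it was 5.53, 16.6, 12.1 and 9.63 kb in the same order. These distances were not adjusted for gene length, and short genes hold fewer peaks.

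By complex, 23 of 34 genes of complex I had a peak (67.6%), 2 of 4 of complex II, 6 of 9 of complex III (66.7%) and 5 of 11 of complex IV (45.5%), where the length classes gave 22.4, 3.13, 5.25 and 6.62 genes and the share of all protein-coding genes was 75%. Counting only peaks inside the gene gave 12 genes of complex I, 2 of complex II, 4 of complex III and 2 of complex IV. In the same order, a window of 2 kb gave 18, 2, 6 and 3 genes, and a window of 10 kb gave 31, 4, 7 and 6. Over all protein-coding genes the shares with a peak, not adjusted for length, were 59.4% inside, 66.8% at 2 kb and 83.6% at 10 kb. With 4 to 34 genes in each, the complexes were set side by side without a test.

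The 36 genes held 67 peaks, 32 overlapping the gene and 35 outside it. Of the 35, 22 lay in another protein-coding gene and 12 in no annotated gene. Among the 53 peaks at genes with a known strand, 8 had their centre within 1 kb of the gene start. Peaks per Mb of the joined windows (1.23 Mb) numbered 22.7 in even replicate 1, 8.10 in even replicate 2, 8.10 in odd replicate 1 and 15.4 in odd replicate 2, against 18.2, 10.7, 12.5 and 14.4 in the windows of all protein-coding genes.

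Scores were low in even replicate 2. Its 10 peaks at subunit genes ran from 131.7 to 390.26, with a median percentile of 17.8, and 1 of them, at Uqcrc2, lay above percentile 50. Peaks of that list at all protein-coding genes under 20 kb, on all chromosomes, had a median percentile of 44.0. At protein-coding genes of any length it was 50.2, and some of the subunit genes are longer than 20 kb. The peaks at Ndufa6, Ndufb9, Ndufs8, Cyc1 and Cox4i1, on chromosomes 8, 15 and 19, ran from percentile 7.02 to 27.8. Those at Ndufa9, Uqcrq, Cox6a1 and Uqcrc2, on other chromosomes, ran from 17.98 to 75.7. In odd replicate 2 the 19 peaks had a median percentile of 53.1, with 11 above percentile 50. The list's peaks at genes under 20 kb had 47.2, and those at protein-coding genes of any length 50.5. Even replicate 1 gave 28 peaks, 19 of them at 3100, 2 above it (Sdhb and Ndufs4) and 7 below it. All 10 peaks of odd replicate 1 scored 3100.

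Of the 36 genes with a peak, 18 had peaks of 1 library and 18 of at least 2. Per the file names, both replicate 1 lists were called against input 1 and both replicate 2 lists against input 2, so the number of genes shared within those 2 pairs of lists is not given as a result. Of the 6 regions of both probe sets, those at Ndufa6, Ndufs6 and Ndufs8 joined lists with the same input, and those at Ndufb5, Ndufa8 and Ndufs3 joined lists with different inputs. Between lists with different inputs, even replicate 1 and odd replicate 2 had the most genes in common, 10. That was 17.2% of the 58 genes, against 29% of all protein-coding genes, and 3 of the 10 had a common region. The even libraries had 4 in common (6.9% of the 58, against 25.3% of all protein-coding genes) and no common region. The odd libraries had 2 in common (3.45% of the 58, against 24.5%), of which Ndufb5 had a common region. Even replicate 2 and odd replicate 1 had 1 in common, Ndufa6 (1.72% of the 58, against 20.3%), and no common region. These shares of all genes are not adjusted for length.

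On chromosomes 8, 15 and 19, where more protein-coding genes had a peak than elsewhere, 7 of 11 subunit genes had a peak, against 86.9% of protein-coding genes there, and on the other chromosomes 29 of 47 did, against 73.4%. Without those 3 chromosomes, even replicate 2 kept a peak at 4 of 47 genes, against 33.6% of protein-coding genes. So 5 of its 9 genes lay on them. These shares are not adjusted for length.

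Other genes of the pathway were listed by function with the earlier results known. Complex V, the ATP synthase, had a peak at 13 of 16 genes found in the table (81.3%, where length classes gave 9.94) and a region of both probe sets at 1, Atp5pb (1.35 by length class, and 16% of all protein-coding genes). Assembly factors were listed with a few genes of mitochondrial RNA and translation, such as Lrpprc and Taco1. That list had a peak at 33 of 46 genes (32.6 by length class). It had a region of both probe sets at 4, namely Uqcc1, Cox16, Coa7 and Lrpprc (6.62 by length class). A further list joined nuclear regulators with factors that copy or transcribe mitochondrial DNA, such as Polg, and had a median length of 26856 bp. Of its 20 genes, 18 had a peak (16.8 by length class). A region of both probe sets lay at 5 of them, namely Polg, Esrrb, Esrrg, Ppargc1a and Ppargc1b (3.83 by length class). In Ppargc1a, the gene for PGC-1alpha, which spans 661605 bp, 1 of 2 such regions held 3 libraries, chr5:51959169-51959969. The length class over 50 kb has no upper bound. Its share is therefore not matched to genes as long as Ppargc1a or Esrrg (606376 bp).

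Further subunits and tissue-restricted isoforms had a peak at 10 of 13 genes (8.01 by length class) and a region at 2, Cox8b and Cox4i2 (1.34 by length class). The region near Cox4i2 was the only one of all 4 libraries at any of the respiratory genes listed. Of all protein-coding genes, 1.6% had such a region, a share not adjusted for length. Cox4i2 codes for the form of subunit 4 that is known to rise in low oxygen and to replace the product of Cox4i1. The region, chr2:152751897-152752363, lay 1553 bp outside the gene (chr2:152753916-152765039) and inside the lncRNA gene Gm32057. It scored 3100 in even replicate 1, 532.27 in even replicate 2 (percentile 90.1), 3100 in odd replicate 1 and 488.47 in odd replicate 2 (percentile 91.2). At Cox4i1 the peaks of 3 libraries fell in separate places, at percentiles 10.0 and 7.99 in the replicate 2 lists. Cox4i2 was singled out after its values were seen.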

How the data were processed

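Recovered DNA from 2 even-probe and 2 odd-probe pulldowns was analysed; the 2 input libraries entered only through the authors' peak calling and were not analysed here. The submitters' processing notes name Bowtie2 2.1.0 and the build mm10. The authors deposited 1 peak list per pulldown, each against 1 input and without pooling, per the file names; peak names start with MACS, but no version or threshold is stated for the caller. As deposited, a peak's score has no stated scale, and it was used within its list only, as a mid-rank percentile. Without read counts in the files, no depth or counting error can be given. A series-wide list, which does not name the library of a peak, was not used.

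Positions count from 1. The gene table was RefSeq's for GRCm38.p6, which is mm10 (49976 genes) and strands from RefSeq promoter entries (48 of 58 subunit genes). Peaks overlapping by at least 1 bp formed regions. Genes were described in full when they had peaks of at least 2 libraries or a region of both probe sets. Numbers by length class apply the share of other protein-coding genes in each of 5 classes (bounds 5, 10, 20 and 50 kb). Even and odd libraries were compared by an exact permutation test. Alternatives were other windows, a score threshold, autosomes, a stricter overlap and each library left out. The members and lists were chosen with earlier results of these data known. Counting was tested on simulated data. Tables were handled with pandas 2.3.3 and numpy 2.4.6, tests with scipy 1.17.1 and plots with matplotlib 3.10.9, under Python 3.11.15.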

Additional observations from a re-analysis of the deposited data

How the results depend on the processing

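Among 68 values computed under other settings, 48 were counts within 1.5 times of the reported one or even-odd differences of 0 or above (0 for peaks inside the gene, 0.5 with the median score as a minimum, and up to 11.5), 18 counts moved further and 2 differences turned direction. Counting only peaks inside a gene gave 20 of 58 genes with a peak, against 59.4% of all protein-coding genes. By library there were 11 and 3 for the even replicates 1 and 2, then 4 and 10 for the odd ones. The shares of all protein-coding genes were 38.3%, 27.5%, 30.6% and 33.2% in that order. A region of both probe sets was left at 3 genes, against 12.4%. A window of 2 kb gave 11 genes in odd replicate 2, against 37.2% of all protein-coding genes. A window of 10 kb raised even replicate 2 and odd replicate 1 to 18 genes each, against 42.2% and 47.3%. Peaks at or above the median score were left at 1 gene in even replicate 2 and 10 in odd replicate 2. The shares of all protein-coding genes were 21.6% and 27.4%. In both replicate 1 lists the median is 3100, the score most of their peaks share. The minimum therefore cut those lists less than the replicate 2 lists, which also bears on the difference of 0.5. Without chromosomes 8, 15 and 19, a choice made with the data known, even replicate 2 had 4 of 47 genes, against 33.6%. Leaving out 1 library gave 1 to 5 genes with a region of both probe sets. The number was 1 without even replicate 1 and 3 without odd replicate 2. Over all protein-coding genes the share was 5.37% to 14.8%. A peak was left at 28 to 34 genes, against 66.8% to 70.4%. None of these shares is adjusted for length. The even-odd difference ran from -3.5 (without even replicate 1) to 11.5, with -0.5 without odd replicate 1. Pulldowns of the same number share an input number, which does not show that they are pairs. With the number as a replicate block the difference was 4 genes (16 and -8 by pair, exact permutation p = 1, where 2 pairs cannot give less than 0.5). The mean over pairs equals the reported difference by arithmetic, so this setting, counted among the 48, could not move it. Over all these settings the exact p of the difference ran from 0.667 to 1. Read depth, absent from the files, limits every count of genes with a peak.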

Other observations

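Just beyond the 5 kb window, Ndufa13, which codes for a complex I subunit also studied as a cell death regulator, had a region of 3 libraries at chr8:69886629-69887123, 7040 bp from the gene and in Cilp2. It scored 3100 in even replicate 1, 206.01 in even replicate 2 (percentile 29.6) and 178.95 in odd replicate 2 (percentile 34.6). Ndufa3 and Ndufb3 had regions of even replicate 2 and odd replicate 1 at 9896 and 8244 bp. With a window of 10 kb the number of subunit genes with a region of both probe sets was 9, against 19.2% of protein-coding genes.

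Promoter sequence of subunit genes held the motifs of known respiratory regulators more often than promoters of all protein-coding genes, as a description of the letters alone. GCGCANGCG (NRF1) was found in 14 of 50 promoters of 48 subunit genes (28.0%, against 8.58% of 21262), CCGGAAG (ETS) in 11 (22.0% against 11.6%), AAGATGGCG (YY1) in 5 (10.0% against 1.83%) and TNAAGGTCA (oestrogen-related receptors) in 2 (4.00% against 1.03%). Both strands were searched for exact letters, and the windows are 250 bases before to 50 after a start.

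The mitochondrial genome, which encodes 13 proteins of the respiratory chain and ATP synthase, had peaks in 1 library, odd replicate 1. Its 3 peaks, all at 3100, overlapped 10 of the 13 genes and left CYTB, ND5 and ND6. The longest ran from position 3383 to 10508.

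Of 4 processed copies that carry the name of a subunit gene (Cox5b-ps, Uqcrh-ps1, Uqcrh-ps2 and Ndufa12-ps), Uqcrh-ps2 had a peak inside or within 5 kb, in odd replicate 1.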
